A study of Mus musculus with 6 samples.

Results

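The annexin, S100 and galectin genes were examined in 3 mouse cell lines described as endothelial progenitor cells (EPCs). Their probes were all those whose gene name on the array begins with ANXA, S100 or LGALS, which gave 45 probes for 38 gene names out of 25697 probes. Of the 38 names, 12 are annexins, 15 are S100 genes and 9 are galectins. The other 2, S100pbp and Lgals3bp, encode binding partners that carry the family name only as a prefix.

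All 3 families act at the borders of the cell without being classical secreted or membrane-spanning proteins. Annexins are cytosolic proteins that attach to acidic phospholipids when calcium rises, and they take part in membrane repair, exocytosis and the organisation of the cortical cytoskeleton. S100 proteins are small calcium-binding dimers that bind other proteins when loaded with calcium, among them several annexins, and some act outside the cell on receptors such as RAGE. Galectins bind beta-galactoside sugars on glycoproteins and, once released, crosslink them at the cell surface. In endothelium the complex of annexin A2 and S100a10 is known for binding plasminogen and its activator, and Lgals1 for a part in vessel growth.

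The EPC line was grown from Flk-1+/c-Kit+/CD45- cells sorted from the lung of athymic nude mice, and was harvested at passage 3 to 6. The EPC_acLDL line was made from it by labelling with fluorescent acetylated LDL, sorting and replating the positive cells, also at passage 3 to 6. EPC_Late is the EPC_acLDL line carried on to passage 16 to 20, and all lines were grown in the same mouse endothelial medium with serum. Each line was read on 2 MouseRef-8 arrays from one chip, so that every line stands for 1 culture lineage and passage in EPC_Late cannot be told apart from drift of that lineage. The sources do not settle whether the arrays of a line are separate cultures, and p-values therefore measure only the spread between these arrays.

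The deposited value was the average bead intensity of each probe, with a detection p-value, the fraction of negative controls that reached its brightness. A probe is called above background on an array here when that p-value is below 0.05. The array medians were 304.6 to 358.7 and 2177 to 2365 probes per array were above background. Of all probes, 88.8% were above background on no array. This also held for 62.7% of the probes for cytosolic ribosomal proteins, which every cell makes, and for all probes of 33 of the 58 such genes. Of 12 widely expressed genes chosen after their values were seen, 9 (B2m, Fth1, Gapdh, Hprt1, Hspa8, Ldha, Pgk1, Tbp and Vim) had no probe above background, while Actb, Eef1a1 and Ppia had at least 1 on all 6 arrays. A member at background is for this reason not read below as an absent transcript. Whether each probe read the transcript it is named for in these RNA samples was not tested, and every value given under a gene name, those of S100a11, Anxa3 and Cavin1 included, is the value of that probe.

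Most members gave no signal. Of the 45 probes, 35 (77.8%) were above background on no array, with intensities of 256.7 to 448.7, and these 35 include every probe of 29 of the 38 genes. They take in several genes that are usually abundant in cultured adherent cells. Anxa1, Anxa2 and Anxa5, the first an anti-inflammatory annexin and the last a phosphatidylserine binder, had lowest detection p-values of 0.550, 0.376 and 0.165. S100a6 (0.578), S100a10 (0.733) and Lgals3 (0.396) were likewise at background on all 6 arrays. Among S100 genes of neutrophils, S100a8 and S100a9 had lowest detection p-values of 0.638 and 0.549. The neuronal and glial S100b and the intestinal calcium binder S100g were at 0.306 and 0.382.

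The criterion for comparing lines, a signal above background on each array of some line, was met by 8 probes (17.8%, against 9.08% of all probes), for 7 genes. They are Anxa3, S100a4, S100a11, S100pbp, Lgals1, Lgals4 and 2 probes for Lgals8, and 7 of the 8 were above background on all 6 arrays. Only S100a11 stood far above the bulk of its arrays, at 4.04 to 6.54 times the array median. The other 7 probes lay at 1.26 to 1.94 times the median. These ratios describe signal over background, not the relative amounts of the transcripts, because each probe has its own efficiency. Anxa4 (detection p-values of 0.0351 to 0.0764) and S100a16 (0.0263 to 0.0689) fell just outside the criterion, with 2 and 3 arrays below 0.05. Each of those arrays was a replicate 1. Just inside it were the Lgals8 probe ILMN_1221288 (0.0201 to 0.0727) and S100a4 (0.0226 to 0.0439).

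**Figure D1:**
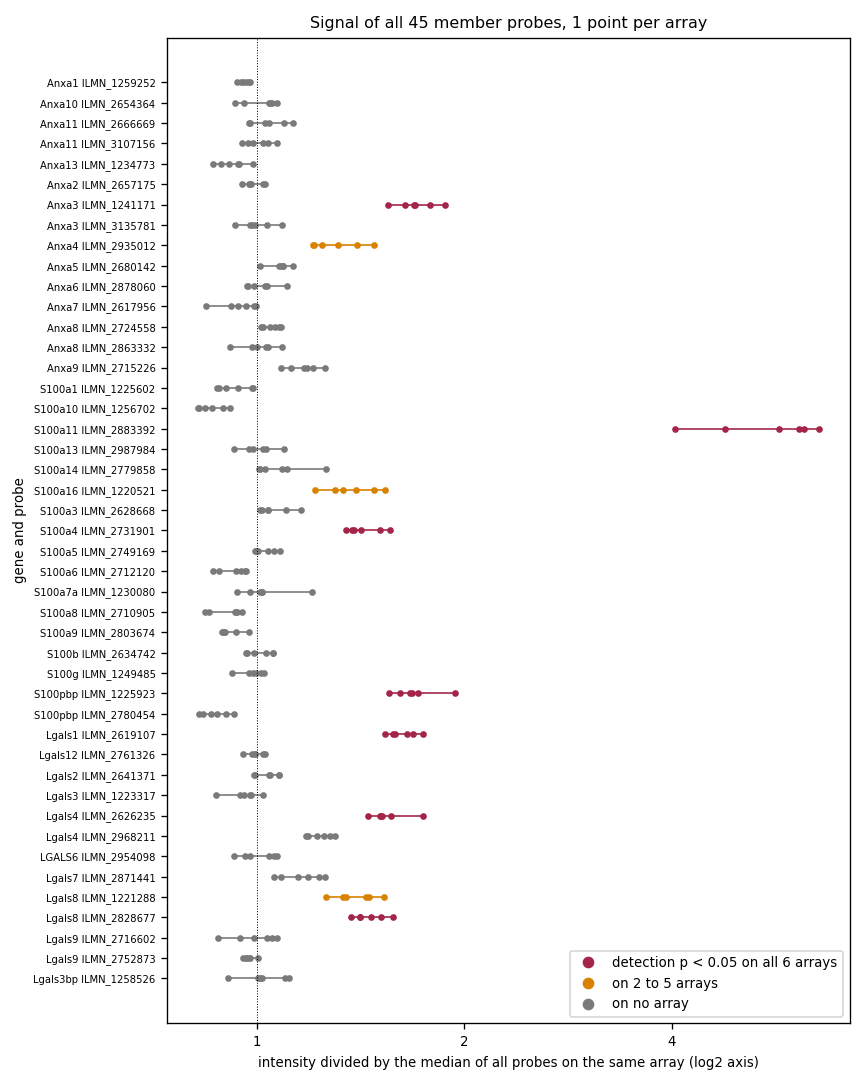
Intensity of each of the 45 probes divided by the median of all probes on the same array (log2 axis), with 1 point for each of the 6 arrays and a line over their range, coloured by the number of arrays with a detection p-value below 0.05. The S100a11 probe lies at 4.04 to 6.54, and the 35 grey probes, above background on no array, gather around 1.

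The question put to the 8 probes was whether their level differed with selection for acetylated LDL uptake and with passage. For this, background was removed, log2 values were quantile normalized between arrays, and the lines were compared with limma over the 2333 probes that met the same detection criterion. EPC_Late against EPC differs in selection and passage together, and EPC_Late against EPC_acLDL in passage without that selection. For EPC_acLDL against EPC no member probe reached an adjusted p below 0.05 in limma (0 of 8), none had an unadjusted p below 0.05, and 3.30% of all tested probes were called. Between EPC_Late and EPC 1 of the 8 passed, S100a11, against 23.9% of all tested probes, and 2 had an unadjusted p below 0.05. Between EPC_Late and EPC_acLDL 0 of the 8 passed in limma, against 20.9%, and 1 had an unadjusted p below 0.05. By direction, in the same order of comparisons, 1.93%, 10.9% and 9.34% of all tested probes were called higher and 1.37%, 13.0% and 11.5% lower in the line named first. The median log2 difference of the 8 was 0.04, 0.04 and 0.00070 in these comparisons, where the median of all tested probes was 0.0075, 0.0056 and 0.0028. The median size of the difference, regardless of sign, was 0.09, 0.20 and 0.12, beside 0.19, 0.25 and 0.23 for all tested probes. Lines whose normalized values stood fully apart were seen at 1, 4 and 3 of the 8 probes, where this held for 50.8%, 58.0% and 58.6% of all tested probes. The comparisons share arrays and are not independent of each other. RNA was taken from whole cultures, in which fewer cells with a transcript and less of it per cell cannot be told apart.

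S100a11 encodes calgizzarin, a calcium-binding protein that binds annexin A1 and takes part in growth control and membrane repair. The intensity of its probe, ILMN_2883392, was 2033.4 and 1958.4 in EPC, 1898.8 and 2111.8 in EPC_acLDL and 1610.2 and 1450.3 in EPC_Late. Both EPC_Late arrays lay below the other 4, and the EPC and EPC_acLDL arrays overlapped. After normalization EPC had a log2 signal of 10.81 ± 0.03, EPC_acLDL of 10.53 ± 0.14 and EPC_Late of 10.29 ± 0.13 (mean ± SD, n = 2 each). S100a11 fell in EPC_Late, being 1.43-fold lower there than in EPC (log2 difference -0.52, SE 0.13, 95% interval -0.84 to -0.20, Benjamini-Hochberg adjusted p = 0.0319 by limma). This was the only call among the 8 probes, where 13.0% of all tested probes were called lower in the same comparison. Leaving out any 1 of the 6 arrays ended the call, with log2 differences of -0.62 to -0.42 and adjusted p from 0.0514 to 0.143 in limma, and so did testing all probes without the filter on detection (adjusted p = 0.0799 in limma), asking for a 2-fold change as well, and using the methods' test with adjustment.

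The position of EPC_acLDL between these lines depended on the scaling and on single arrays. In the normalized values S100a11 was 0.28 lower on the log2 scale in EPC_acLDL than in EPC (95% interval -0.60 to 0.04, adjusted p = 0.294 from limma), and without normalization between arrays this difference was 0.0034. Against EPC_acLDL, EPC_Late had a log2 difference of -0.24 (95% interval -0.56 to 0.08, adjusted p = 0.280 from limma). With 1 array left out the first of these ran from -0.38 to -0.17 and the second from -0.34 to -0.14. With a shift to the 75th percentile in place of quantile normalization, without normalization, and with intensities scaled to the 75th percentile and floored at 1 without background correction, the second was -0.50, -0.51 and -0.49, and each of these passed (adjusted p = 0.0476, 0.0384 and 0.0039 from limma). EPC_Late was thus lower than EPC in direction under all settings run, whereas the size of the step from EPC_acLDL moved by over 1.5 times.

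**Figure D2:**
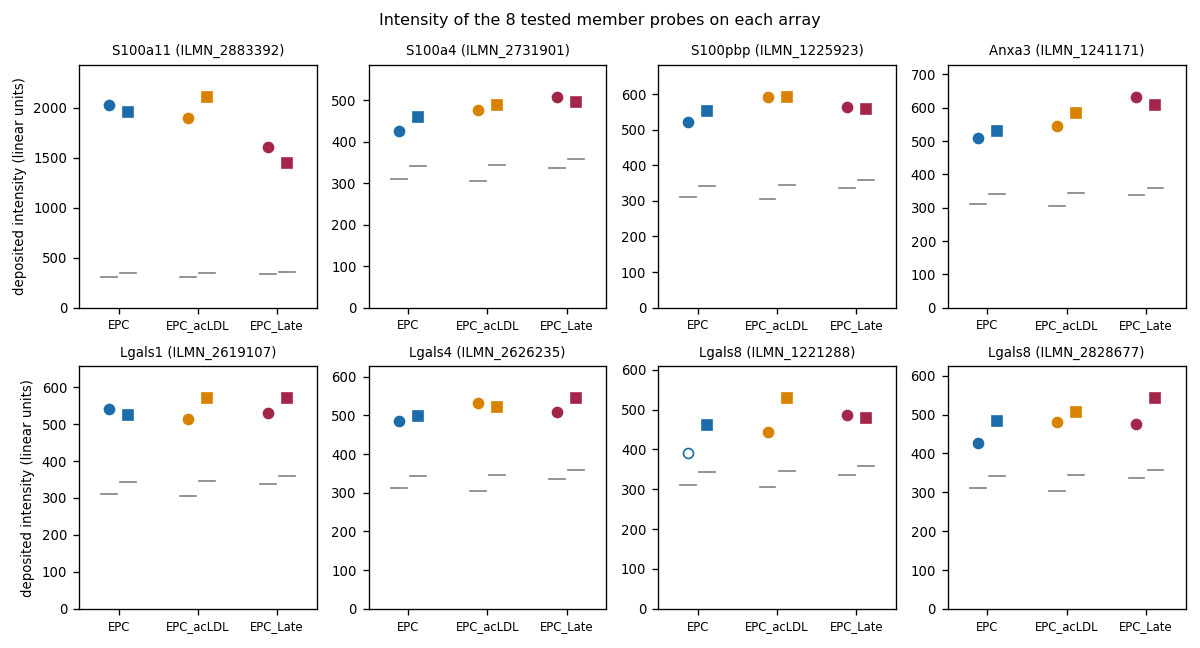
Deposited intensity (linear units, axes starting at 0) of the 8 tested probes on each array, with circles for replicate 1, squares for replicate 2, an open symbol where the detection p-value was 0.05 or more, and grey bars at the array medians. The EPC_Late arrays are below the others for S100a11 and above them for Anxa3 and S100a4.

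S100a4 encodes a calcium-binding protein linked to cell motility and to fibroblast-like states. Its probe gave intensities of 427.3 and 461.1 in EPC, 476.2 and 489.5 in EPC_acLDL and 508.7 and 497.3 in EPC_Late. The deposited intensities of the 3 lines did not overlap and lay in the order EPC, EPC_acLDL, EPC_Late. In normalized values EPC_Late differed from EPC by 0.22 on the log2 scale (95% interval -0.12 to 0.56, adjusted p = 0.329 from limma). The difference was not larger than the spread between arrays by this test, although these normalized values did not overlap. With 1 array left out it ran from 0.10 to 0.34. EPC_acLDL differed from EPC by 0.10 (95% interval -0.24 to 0.44). EPC_Late differed from EPC_acLDL by 0.12 with overlapping normalized values, and this turned to -0.021 with the shift to the 75th percentile, so that the order of the lines in intensity did not hold under every scaling.

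S100pbp encodes a nuclear protein named for binding S100P, a name that no member probe carries. Its brighter probe, ILMN_1225923, gave 522.3 and 553.2 in EPC, 591.7 and 592.4 in EPC_acLDL and 562.6 and 559.2 in EPC_Late. In these intensities EPC was the lowest line. In normalized values EPC_Late was the lowest, with a log2 difference of -0.13 to EPC (95% interval -0.42 to 0.15) and -0.19 to EPC_acLDL (95% interval -0.47 to 0.10), and neither passed in limma. With 1 array left out these differences ran from -0.20 to -0.066 and from -0.26 to -0.12. Without normalization between arrays the first was -0.031.

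Anxa3 was the only annexin that could be compared. It encodes an annexin that has been linked to endothelial migration. Its probe, ILMN_1241171, had an intensity of 509.8 and 530.3 in EPC, 543.7 and 584.3 in EPC_acLDL and 632.7 and 609.4 in EPC_Late, and the lines did not overlap. After normalization EPC had a log2 signal of 7.68 ± 0.02, EPC_acLDL of 7.72 ± 0.05 and EPC_Late of 8.06 ± 0.15 (mean ± SD, n = 2 each). EPC_Late differed from EPC by 0.38 (SE 0.12, 95% interval 0.09 to 0.68) and from EPC_acLDL by 0.35 (SE 0.12, 95% interval 0.05 to 0.64). Adjusted over all tested probes neither passed, with adjusted p = 0.0724 and 0.103 from limma. When the test was limited to probes that reached a detection p-value under 0.01 on every array, both did (adjusted p = 0.0162 and 0.0244 from limma), and without normalization between arrays the first did (adjusted p = 0.0461 from limma). Without background correction the first difference was 0.16. The second was 0.20 with the shift to the 75th percentile, 0.19 without normalization and 0.044 with that percentile, a floor and no background correction (adjusted p = 0.390, 0.363 and 0.776 from limma).

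**Figure D3:**
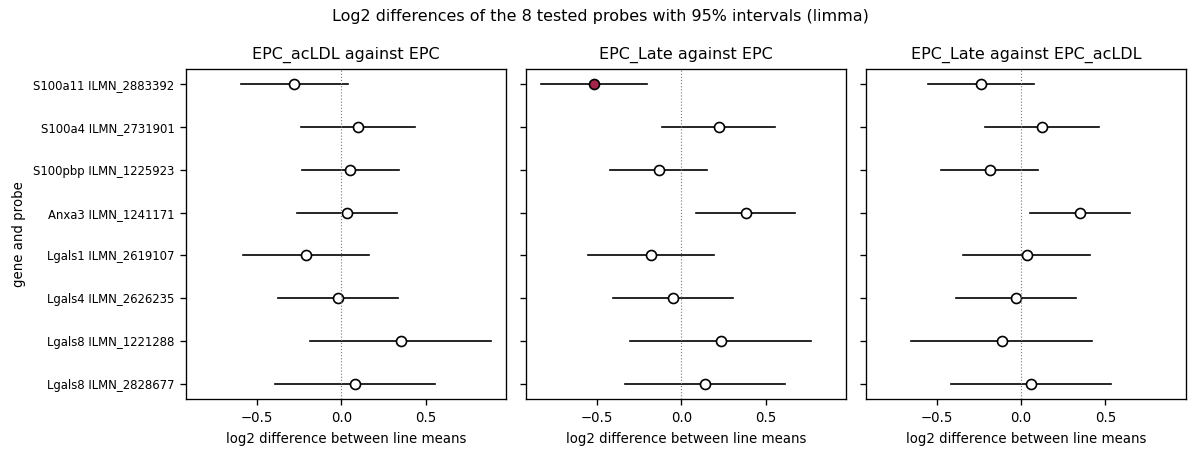
Log2 difference between line means for the 8 tested probes in each comparison, with 95% intervals from limma and a filled point where the adjusted p was below 0.05. S100a11 in EPC_Late against EPC, at -0.52, is the only filled point, and Anxa3, at 0.38 and 0.35, has the only intervals that lie wholly above 0.

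The galectins showed no call in any comparison. Lgals1, the dimeric galectin that is abundant in mesenchymal and endothelial cells, gave 541.5 and 525.0 in EPC, 513.7 and 570.5 in EPC_acLDL and 530.8 and 569.8 in EPC_Late. The lines overlapped, and the log2 differences to EPC were -0.21 in EPC_acLDL (95% interval -0.59 to 0.16) and -0.18 in EPC_Late (95% interval -0.55 to 0.19). With 1 array left out these ran from -0.36 to -0.062 and from -0.33 to -0.031, and the first changed sign without normalization between arrays, at 0.042. Lgals1 reached at most 1.74 times the array median.

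Lgals4 is known from the intestinal epithelium, where it joins glycolipids in apical membranes. Its probe ILMN_2626235 gave 486.6 and 497.1 in EPC, 530.7 and 522.8 in EPC_acLDL and 508.1 and 544.8 in EPC_Late. In intensity the other lines lay above EPC, and in normalized values the lines overlapped. The normalized log2 differences to EPC were -0.021 in EPC_acLDL (95% interval -0.38 to 0.33) and -0.051 in EPC_Late (95% interval -0.41 to 0.30). LGALS6, a name that matched no symbol of the RefSeq table used, belongs to a close copy of Lgals4, and whether a probe of one also reads the other was not tested.

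Lgals8 encodes a galectin that binds integrins and marks damaged vesicles for autophagy, and it was read by 2 probes of the same transcript. ILMN_2828677 gave 426.5 and 484.1 in EPC, 481.1 and 506.0 in EPC_acLDL and 474.9 and 542.8 in EPC_Late. ILMN_1221288 gave 391.7 and 461.1 in EPC, 444.0 and 528.9 in EPC_acLDL and 485.3 and 478.4 in EPC_Late, with 1 of 2 EPC arrays above background. For both probes the lowest of the 6 values was that of EPC replicate 1. The log2 differences to EPC were 0.08 and 0.35 in EPC_acLDL and 0.14 and 0.23 in EPC_Late, for ILMN_2828677 and ILMN_1221288, and all 4 had 95% intervals that include 0. With 1 array left out the 0.35 ran from 0.10 to 0.61, and the other 3 changed sign, reaching -0.092, -0.10 and -0.013. The second probe passed the filter through the lines in which it was brighter, so that its positive differences to EPC are in part set by that choice.

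**Figure D4:**
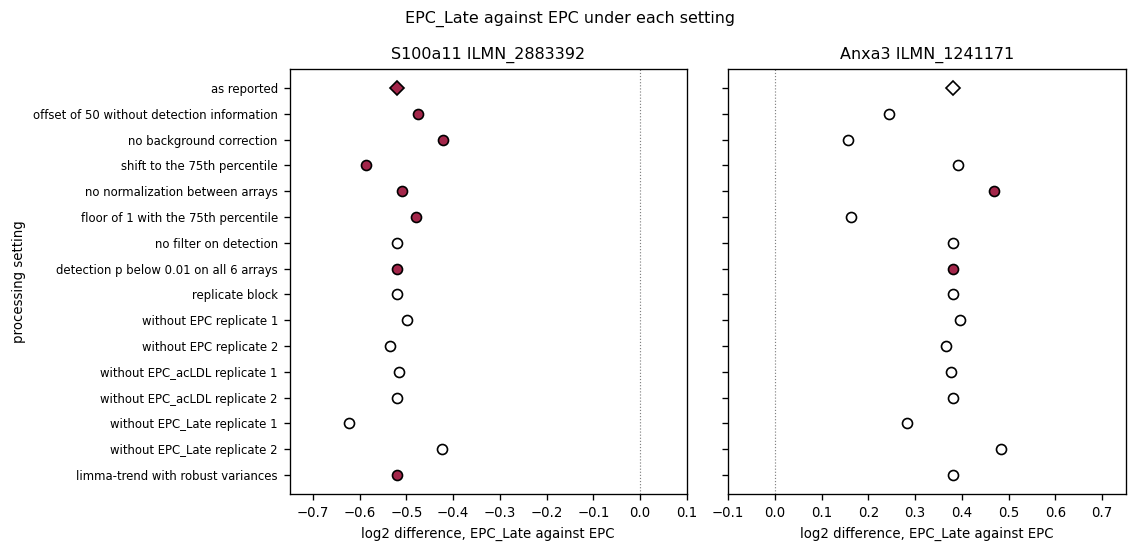
Log2 difference of EPC_Late against EPC for S100a11 (left) and Anxa3 (right) as reported (diamond) and under 15 other settings (circles), filled where the adjusted p from limma was below 0.05. S100a11 keeps its sign in all of them, passes in 7 of the 15 and loses the call whenever 1 array is left out. Anxa3 passes in 2 of the 15.

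Probes of one gene did not always give a signal together. There were 7 members with 2 probes each. For Lgals8 both probes met the criterion, and for Anxa11, Anxa8 and Lgals9 neither was above background on any array. For Anxa3, Lgals4 and S100pbp one probe was above background on all 6 arrays and the other on none. Their mean intensities were 568 and 334 for Anxa3, 515 and 412 for Lgals4, and 564 and 290 for S100pbp. The S100pbp probes carry different transcript keys in the file, and those of Anxa3 and Lgals4 carry the same key. Over the whole array, 335 of 2978 transcript keys with 2 probes had only one of them above background on all 6 arrays, and 40 had both. The values of each gene above are those of its listed probe only.

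Most S100 genes lie on one chromosome, 15 of 19 in RefSeq's GRCm38.p6 table, which was used here for gene order only. There, S100a1 to S100a9 form a run of 12 S100 genes without another protein-coding gene between them. Of the 11 with a probe, S100a4 met the criterion, S100a16 was above background on 3 arrays and 9 were so on none. S100a11 and S100a10 are direct neighbours on the same chromosome, and the first was above background on all 6 arrays and the second, the partner of annexin A2, on none.

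Partner genes of the 3 families were read from a list of 39 names, of which 36 were found on the array and 30 had no probe above background on any array. One of them, Lgals3bp, is also counted among the members above. Over the list 4 probes were tested, and 0, 1 and 2 of them were called in limma for EPC_acLDL against EPC, EPC_Late against EPC, and EPC_Late against EPC_acLDL, beside 3.30%, 23.9% and 20.9% of all tested probes.

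Cavin1, named Ptrf on the array, encodes the coat protein of caveolae, the membrane pits in which annexins also gather. Its intensity was 1441.9 and 1177.2 in EPC, 1392.1 and 1408.1 in EPC_acLDL and 780.4 and 671.3 in EPC_Late, so that both EPC_Late arrays lay well below the rest. It fell in EPC_Late with log2 differences of -1.45 to EPC and -1.36 to EPC_acLDL (adjusted p = 0.00311 and 0.00529 from limma). Without background correction these were -0.93 and -0.86. The second call just missed the threshold without EPC_acLDL replicate 2 (adjusted p = 0.050 from limma). Lamp2, a heavily glycosylated lysosomal membrane protein that galectins bind, gave 2335.8 and 2461.0 in EPC, 2369.0 and 2337.0 in EPC_acLDL and 2666.6 and 3186.9 in EPC_Late. These are values of ILMN_3074259, and the other 3 Lamp2 probes were above background on no array. The signal rose in EPC_Late against EPC_acLDL (log2 difference 0.52, SE 0.13, adjusted p = 0.0375 by limma). The call was lost without either EPC_acLDL array or either EPC_Late array (adjusted p from 0.0694 to 0.169 in limma). It was also lost when arrays were shifted to the 75th percentile, left unnormalized, scaled to that percentile with a floor and no background correction, or tested with no filter (adjusted p = 0.139, 0.136, 0.163 and 0.103 in limma). Under the first 3 of these settings the difference was smaller, at 0.35, 0.34 and 0.21, and without the filter it was 0.52 as before.

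Calm3, 1 of the genes for calmodulin, and Ager, which encodes the S100 receptor RAGE, were tested and not called. Calm3 gave 20302.9 and 20670.6 in EPC, 28457.2 and 29355.0 in EPC_acLDL and 18373.2 and 18842.9 in EPC_Late. In these intensities EPC_acLDL was the highest line, and after quantile normalization its log2 difference to EPC was 0.30 (95% interval 0.04 to 0.56, adjusted p = 0.191 from limma). Ager stayed near background, at 401.4 to 475.1, with log2 differences to EPC of 0.09 and 0.10. This Ager probe too passed the filter only through the lines in which it was brighter, since its EPC detection p-values were 0.0614 and 0.0489, and the other Ager probe was above background on no array.

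Markers of cell types were at background in nearly all cases. Of 14 endothelial markers 13 had no probe above background on any array, Pecam1, Cdh5, Tek and Vwf among them, and Kdr, the gene of Flk-1, was above background on all 6 arrays at 548.7 to 609.3, with log2 differences of -0.012 to 0.023 between the lines. Beside the 88.8% of all probes above background on no array, and with Gapdh, Vim and B2m there too, these markers neither bear out the endothelial label nor speak for its absence. None of 7 blood markers on the array, Ptprc included, was above background, nor were 6 of 7 epithelial and 8 of 10 mesenchymal markers. The epithelial marker above background was Cdh1, the gene of E-cadherin, on all 6 arrays at 502.1 to 623.8 and not called in any comparison. The summed intensity of the endothelial list was 6638 to 7309 in EPC, 6616 to 7342 in EPC_acLDL and 7207 to 7625 in EPC_Late, and that of the mesenchymal list was 4985 to 5337, 5096 to 5573 and 5386 to 5721. These sums are mostly background. Of the 4 marker probes tested 1 was called between EPC_Late and EPC, where 23.9% of all tested probes were. It was that of Col1a2, a collagen chain of mesenchymal cells, with a log2 difference of 0.43 between EPC_Late and EPC (adjusted p = 0.0470 from limma), lost in all 6 fits without 1 array (adjusted p from 0.0618 to 0.163 in limma). It passed in 1 of the 14 alternatives in which it was tested, with differences from 0.14 to 0.53. The other mesenchymal probe tested, that of the smooth muscle actin gene Acta2, lay the other way, with log2 differences of -0.18 to EPC and -0.22 to EPC_acLDL in EPC_Late, and was not called. The part of such cells in the S100a11 or Anxa3 values was not tested.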

How the data were processed

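RNA of 3 lines was hybridized to 6 arrays (MouseRef-8 v2.0), 2 per line. The authors summarized bead intensity per probe in BeadStudio v3.1 with its default local background correction and without normalization. The deposited intensity is linear, and the deposited detection p-value compares each probe with negative controls. No per-sample column was left unused (0).

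From these, limma 3.58.1 in R 4.3.3 estimated background from the detection p-values, added an offset of 16 and quantile normalized log2 values (neqc). The filter kept 2333 of 25697 probes, those for which some line had a detection p below 0.05 on each of its arrays. One lmFit and eBayes fit of all 6 arrays without covariates gave 3 comparisons, with Benjamini-Hochberg adjustment over all tested probes. The study's methods name GeneSpring, and a two-tailed Student's test for datasets in general. The latter was run as an alternative, beside other background corrections, scalings and filters, a replicate block, and leaving out each array. Intervals are 95% and unadjusted. Steps were tested on simulated intensities. With background drawn anew for each probe and array, fewer changed probes were recovered and more false calls were made, mostly of probes simulated without signal, than with a background of its own for each probe. At 1.5-fold, 4 of 50 changed probes were called in the former and 27 of 50 in the latter. False calls over all tested probes were 57 and 13. The second simulation was adopted after the first had fallen short.

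Every member probe meeting the detection criterion is named. Partners are named where called, and the members named at background, Calm3, Ager and the markers named besides were chosen after their values were seen. Members and lists were chosen with earlier results of these data known. Gene names were matched to RefSeq symbols (44 of 45 probes). No coordinates are given, since the files name no build, and probe sequences were not used here. The number of arrays and the signal over background limit the precision.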

Additional observations from a re-analysis of the deposited data

How the results depend on the processing

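The alternatives changed calls of S100a11 and Anxa3 and no other member. The number of members called was 0, 1 and 0 for EPC_acLDL against EPC, EPC_Late against EPC, and EPC_Late against EPC_acLDL. The first stayed at 0 under every alternative run. The second was 2 without normalization between arrays and with detection p below 0.01 on all 6 arrays, and 0 without the filter on detection, with the replicate block, with the methods' test after Benjamini-Hochberg adjustment and with 2-fold added. It was 0 to 0 with arrays left out, which treats the lone array of a line as varying as the other lines do. The third was 1 with the shift to the 75th percentile, without normalization, with intensities scaled to the 75th percentile and floored at 1 without background correction (below, the floor setting, which changes these choices together), and with detection p below 0.01 on all 6 arrays. Deviations of same-numbered arrays were little correlated over the tested probes (0.08, 0.02 and 0.03). This cannot settle whether the replicate numbers pair the samples. In each line the array median was higher for replicate 2 than for replicate 1. The replicate block ended the S100a11 call (adjusted p = 0.0514 in limma). Log2 differences that were not called changed sign under some settings, and the cause was not tested. For EPC_acLDL against EPC, the shift to the 75th percentile gave 0.16 for Lgals4 and 0.052 for Cavin1. No normalization gave 0.042 for Lgals1, 0.24 for Lgals4, 0.0034 for S100a11 and 0.14 for Cavin1, and the floor setting gave 0.023, 0.10, 0.0063 and 0.11 for the same genes. For EPC_Late against EPC, no normalization gave 0.067 and the floor setting 0.003 for Lgals4. For EPC_Late against EPC_acLDL, the shift gave -0.098 for Lgals1, -0.070 for Lgals8 ILMN_2828677 and -0.021 for S100a4. No normalization gave -0.11, -0.080 and -0.031 for these and -0.0011 for Col1a2, and the floor setting gave -0.073, -0.055, -0.037 and -0.032. The shift, no normalization and the floor setting put the median of all tested probes at 0.16, 0.25 and 0.11 for EPC_acLDL against EPC and at -0.15, -0.16 and -0.096 for EPC_Late against EPC_acLDL. With 1 array left out, values for EPC_acLDL against EPC ran from -0.0025 to 0.068 for Anxa3, -0.17 to 0.13 for Lgals4, -0.092 to 0.25 for Lgals8 ILMN_2828677, -0.0032 to 0.20 for S100a4, -0.015 to 0.12 for S100pbp and -0.27 to 0.080 for Cavin1. For EPC_Late against EPC they ran from -0.14 to 0.037 for Lgals4, -0.013 to 0.49 for Lgals8 ILMN_1221288 and -0.10 to 0.38 for Lgals8 ILMN_2828677. For EPC_Late against EPC_acLDL they ran from -0.077 to 0.14 for Lgals1, -0.18 to 0.12 for Lgals4, -0.34 to 0.11 for Lgals8 ILMN_1221288 and -0.18 to 0.30 for Lgals8 ILMN_2828677. In all, 397 of 474 values kept their direction and their side of the threshold and 41 reversed, none of them a called value. Over all tested probes the calls, 77, 557 and 487 in these comparisons, ranged over the alternatives on all 6 arrays from 1 to 355, 15 to 693 and 11 to 631, the lowest with the methods' test after Benjamini-Hochberg adjustment. With 1 array left out they were 9 to 36, 370 to 468 and 203 to 460.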
